A study of Mus musculus with 6 samples.

Results

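Transcripts of 10 immediate early genes were examined in the liver of male mouse pups, namely *Fos*, *Fosb*, *Jun*, *Junb*, *Jund*, *Egr1*, *Ier2*, *Ier3*, *Myc* and *Klf6*. They were chosen by name, with earlier results of these data known, as were the gene lists described below. Every probe of the liver array table that carried one of the 10 symbols was taken. This gave 12 of the 25697 probes in the table. The table lists *Jund* under its older symbol *Jund1*, and a match on symbols exactly as written would have given 11 probes of 9 genes.

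The livers came from FVB/N (FVB in the labels) pups at postnatal day 6, with 3 hSRY-OFF animals, the controls, and 3 hSRY-ON animals as biological triplicates. By the study's definition, hSRY-OFF mice carried 1 copy of a Signalox-hSRY transgene, placed at the *H11* locus and not recombined, so that the CAG promoter drove *DsRed2* and human *SRY* was silent. Elsewhere the study also uses littermates without this transgene as controls, and the labels of the arrays say hSRY-OFF only. In hSRY-ON pups, Cre recombinase left in the oocyte by a *Ddx4-Cre* mother had removed *DsRed2* in the single-cell embryo, and the CAG promoter drove FLAG-tagged human *SRY* together with *EGFP*. The hSRY-ON pups put on arrays had not inherited *Ddx4-Cre*. CAG is active in nearly all cell types, so the groups differ throughout the body and not in the liver alone, and the study describes hSRY-ON pups as growth retarded with little milk in the stomach. The level of the transgene itself was not analysed here.

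Immediate early genes are switched on within minutes of a growth factor, cytokine, feeding or stress signal, without a need for new protein synthesis, and their messenger RNAs are short-lived. Proteins of the FOS and JUN families pair through leucine zippers to form AP-1, a dimer that binds DNA. In the liver these genes are best known from the first hours after partial hepatectomy, when hepatocytes leave quiescence.

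Promoter sequence was taken from RefSeq (assembly GRCm38.p6), which gave a window of 250 bases before the annotated start for 7 of the 10 genes. Shown here, 5′ to 3′ on the strand of the gene, are the windows of *Jund*, *Ier3* and *Klf6*, which rose in hSRY-ON livers, and of *Fos* and *Junb*, 2 AP-1 genes whose windows hold TGACG. Capitals mark matches on either strand to the motifs searched.
Fos (chr12:85473640-85473889, plus strand): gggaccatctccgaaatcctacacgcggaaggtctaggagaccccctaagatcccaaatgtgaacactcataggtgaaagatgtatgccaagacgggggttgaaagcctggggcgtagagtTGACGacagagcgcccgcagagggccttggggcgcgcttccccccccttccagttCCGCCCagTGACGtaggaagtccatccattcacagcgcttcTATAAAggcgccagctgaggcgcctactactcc
Junb (chr8:84978749-84978998, minus strand): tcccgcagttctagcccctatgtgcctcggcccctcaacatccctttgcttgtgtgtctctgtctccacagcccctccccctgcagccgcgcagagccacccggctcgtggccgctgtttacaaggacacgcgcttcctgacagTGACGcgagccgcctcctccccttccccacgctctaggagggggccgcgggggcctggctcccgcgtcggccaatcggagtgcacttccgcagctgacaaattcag
Jund (chr8:70697489-70697738, plus strand): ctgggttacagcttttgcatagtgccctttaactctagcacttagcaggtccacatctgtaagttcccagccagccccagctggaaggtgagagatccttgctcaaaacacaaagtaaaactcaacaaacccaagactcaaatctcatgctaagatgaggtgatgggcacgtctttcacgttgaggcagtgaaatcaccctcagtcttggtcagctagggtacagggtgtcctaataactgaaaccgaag
Ier3 (chr17:35821463-35821712, plus strand): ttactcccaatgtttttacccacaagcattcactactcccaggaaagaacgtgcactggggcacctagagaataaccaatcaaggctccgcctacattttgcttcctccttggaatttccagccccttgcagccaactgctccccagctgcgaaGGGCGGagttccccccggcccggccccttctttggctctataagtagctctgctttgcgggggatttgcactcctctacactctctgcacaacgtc
Klf6 (chr13:5861239-5861488, plus strand): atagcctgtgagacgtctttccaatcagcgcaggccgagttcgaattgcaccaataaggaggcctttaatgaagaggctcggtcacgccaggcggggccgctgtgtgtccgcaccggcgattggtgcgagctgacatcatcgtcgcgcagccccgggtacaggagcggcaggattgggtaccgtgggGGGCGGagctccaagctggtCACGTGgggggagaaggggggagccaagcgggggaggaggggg
The *Fos* window held TATAAA at 33 bases before the start, a motif present in 12.4% of all 32851 mouse windows of this length, and TGACG at 129 and at 66 bases before it. TGACG, the core of the cyclic AMP response element, was found in 3 of the 7 windows (*Fos*, *Fosb* and *Junb*), against 17.8% of all windows. GGGCGG, a core bound by Sp1 and Klf proteins, was found in 5 (*Fos*, *Fosb*, *Jun*, *Ier3* and *Klf6*), against 32.7% of all windows. CACGTG, an E-box that Myc and Max bind, was found in the *Klf6* window at 43 bases before the start and in none of the other 6, against 6.02% of all windows. No match to the AP-1 site TGANTCA, to the CArG box bound by serum response factor or to AACAAT, a core bound by SRY and SOX proteins, was found in these 7 windows, and 6.75%, 1.47% and 9.42% of all windows held one. The *Jund* window held none of the motifs searched. Marked matches did not overlap in the windows shown, and a match describes letters of the C57BL/6J reference only.

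Each array gave a bead intensity per probe, which was corrected for background, quantile normalized and put on the log2 scale. A probe counts as detected on an array where its detection p, from its rank among the negative control beads, was under 0.01, and the arrays detected 40.2% to 41.9% of their probes. Probes detected on at least 3 of the 6 arrays, 10734 in all, were tested for a difference between groups with limma. A difference, always hSRY-ON minus hSRY-OFF in log2 units, was called at a Benjamini-Hochberg adjusted p under 0.05 over all tested probes. By this rule 15.8% of tested probes were higher and 17.3% were lower in hSRY-ON livers, 33.1% in either direction. Probes varied more between hSRY-ON arrays (median SD 0.21) than between control arrays (0.14). In whole liver, fewer or more cells of a type and less or more RNA per cell cannot be told apart.

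Of the 10 genes, *Jund*, *Ier3*, *Myc* and *Klf6* rose in hSRY-ON livers, by 0.94 to 1.37 log2 units for the 3 detected in both groups. *Myc* was detected on no hSRY-OFF array. Its fitted difference was 1.88, or 1.41 with undetected values raised to the lowest detected signal. The 4 genes gave 4 of the 7 member probes that could be tested (57.1%), against 15.8% of all tested probes. *Jun* and *Junb* had higher means, by 0.97 and 1.06, and *Egr1* had a lower mean (difference -0.86), and none of these 3 passed the threshold. The count of members called lower was 0 by limma, where 17.3% of all tested probes were lower. It was also 0 at an unadjusted p under 0.05. *Fos* was detected on 2 hSRY-ON arrays and on no hSRY-OFF array, too few for the test. *Fosb* and *Ier2* were detected on 0 arrays. Of the 12 probes, 6 were detected on all 6 arrays and 4 on none. The median difference of the 7 tested probes was 1.06, against 0.02 for all tested probes. *Myc* passed the filter only through the hSRY-ON arrays and so had to differ. The members were also chosen with earlier results of these data known. The count and the median are therefore given as descriptions of the probes that passed.

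**Figure D1:**
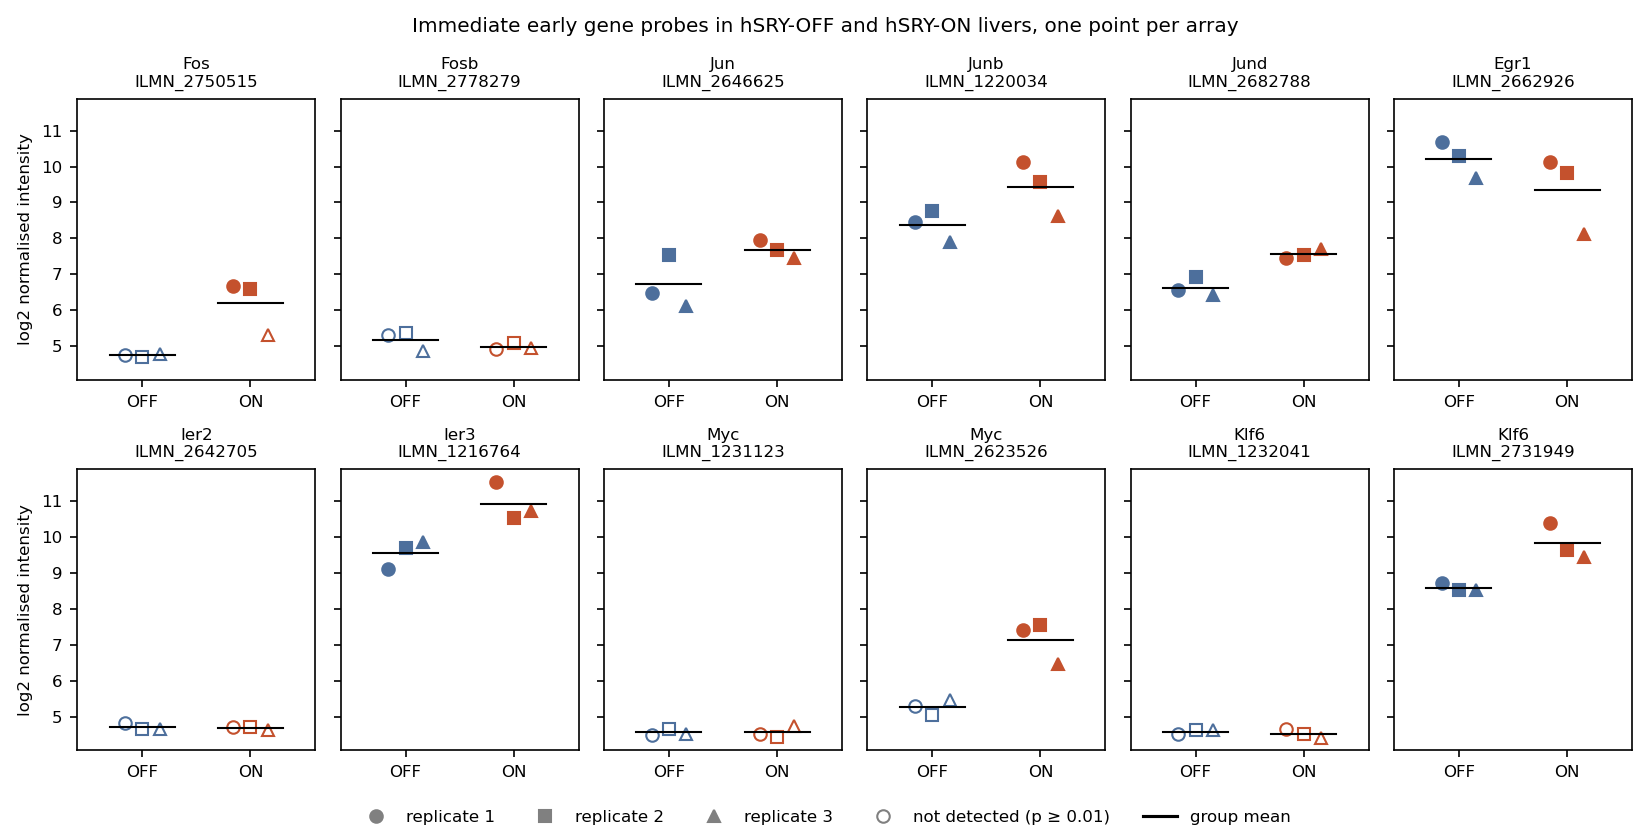
Log2 normalised intensity of the 12 probes on each array, hSRY-OFF in blue and hSRY-ON in red, with 1 point per array, a bar at the group mean and open points where the probe was not detected. The groups are apart for *Fos*, *Jund*, *Ier3*, the detected *Myc* probe and the detected *Klf6* probe, and overlap for *Jun*, *Junb* and *Egr1*.

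*Fos* and *Fosb* encode AP-1 subunits that need a Jun partner to bind DNA well. On the *Fos* probe (ILMN_2750515) the log2 intensities were 4.76, 4.70 and 4.77 on the hSRY-OFF arrays and 6.67, 6.60 and 5.31 on hSRY-ON replicates 1, 2 and 3. All hSRY-ON values lay above the hSRY-OFF values, with a gap of 0.54, but the probe was detected only on replicates 1 and 2 (detection p 0.0501 on replicate 3). Before any correction the intensities were 149, 148 and 138 in the controls and 245, 217 and 153 in hSRY-ON livers. The measured means were 4.74 ± 0.04 and 6.19 ± 0.76 (SD, n = 3 each), a difference of 1.45. The hSRY-ON mean of *Fos* exceeded the control by a factor of at least 1.37, a bound for which each control value was raised to the lowest signal among the detected probes of its array (log2 5.69 to 5.79). With undetected values of both groups raised in this way the difference was 0.61. When the filter was dropped and all probes were tested, limma called *Fos* higher (adjusted p 0.0386). *Fosb* (ILMN_2778279) lay between 4.86 and 5.36 on the 6 arrays, below detection on each.

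The *Jun* genes encode AP-1 subunits that can pair with one another as well as with Fos. *Jund*, the member that resting cells generally keep at a steady level, gave 6.56, 6.91 and 6.41 in the controls and 7.46, 7.54 and 7.71 in hSRY-ON livers (ILMN_2682788). The lowest hSRY-ON value exceeded the highest hSRY-OFF value by 0.55. The group means were 6.63 ± 0.26 and 7.57 ± 0.13 (SD, n = 3 each), and *Jund* rose by 0.94 ± 0.16 (SE; 95% confidence interval 0.57 to 1.32; adjusted p 0.00491, limma), a 1.92-fold change. It was called in each of 17 alternatives, arrays left out included, with differences of 0.47 to 1.08.

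*Jun*, the founding AP-1 gene, gave 6.49, 7.54 and 6.12 in the controls and 7.94, 7.68 and 7.45 in hSRY-ON livers (ILMN_2646625). The groups overlapped because hSRY-OFF replicate 2 lay above hSRY-ON replicate 3. The means were 6.72 ± 0.74 and 7.69 ± 0.25, and the difference of 0.97 ± 0.35 (SE; interval 0.16 to 1.79) was not past the threshold (adjusted p 0.0675). It passed without hSRY-OFF replicate 2 (1.38, adjusted p 0.00989) and with arrays weighted by their quality (1.13, adjusted p 0.0286).

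*Junb*, which is induced early and can restrain Jun activity, gave 8.45, 8.76 and 7.91 in the controls and 10.12, 9.58 and 8.61 in hSRY-ON livers (ILMN_1220034). Replicates 1 and 2 of hSRY-ON stood above every control value, and replicate 3 lay between control values. The means were 8.38 ± 0.43 and 9.44 ± 0.77, and the difference of 1.06 ± 0.39 (SE; interval 0.15 to 1.98) was not past the threshold (adjusted p 0.0725). It passed without hSRY-ON replicate 3 (1.48, adjusted p 0.00802) and with quality weights (1.38, adjusted p 0.00802).

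*Egr1*, a zinc finger factor induced by growth factors, was the only tested member with a lower mean in hSRY-ON livers. Its values were 10.69, 10.29 and 9.67 in the controls and 10.12, 9.82 and 8.13 in hSRY-ON livers (ILMN_2662926). Replicate 3 was the lowest array of each group, and the groups overlapped. The means were 10.22 ± 0.51 and 9.36 ± 1.07, with a difference of -0.86 ± 0.52 (SE; interval -2.07 to 0.35; adjusted p 0.236). Without hSRY-ON replicate 3 the difference was -0.25 (adjusted p 0.527).

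*Ier2* and *Ier3* share a name as immediate early response genes but belong to different families. *Ier2* (ILMN_2642705) was detected on 0 arrays, with means of 4.71 in the controls and 4.69 in hSRY-ON livers. *Ier3*, whose product acts on cell survival under stress, gave 9.12, 9.69 and 9.86 in the controls and 11.53, 10.53 and 10.73 in hSRY-ON livers (ILMN_1216764). The groups were apart by 0.66, with hSRY-ON replicate 1 highest. The means were 9.56 ± 0.39 and 10.93 ± 0.53, and *Ier3* rose by 1.37 ± 0.30 (SE; interval 0.67 to 2.07; adjusted p 0.0128), a 2.58-fold change. Without hSRY-OFF replicate 1, the lowest control, the difference of 1.14 did not pass (adjusted p 0.0510).

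*Myc* encodes a helix-loop-helix factor that pairs with Max and drives genes of ribosome production and growth. One *Myc* probe (ILMN_2623526) was detected on all 3 hSRY-ON arrays and on no hSRY-OFF array, with values of 5.30, 5.04 and 5.47 in the controls and 7.41, 7.56 and 6.47 in hSRY-ON livers. The groups were apart by 1.0 log2 unit, the widest gap among the tested members. The hSRY-ON livers held at least 2.65-fold more *Myc* signal. The measured means were 5.27 ± 0.21 and 7.15 ± 0.59, and the fitted difference was 1.88 ± 0.29 (SE; interval 1.21 to 2.55; adjusted p 0.0033), or 1.41 with undetected values raised to the lowest detected signal. The other *Myc* probe (ILMN_1231123) was detected on 0 arrays (difference 0.01), so the rise rests on 1 of 2 probes. *Myc* was called in each of the 13 alternatives in which it was tested, with differences of 0.73 to 2.06. It was not tested where detection on all 6 arrays was required or an hSRY-ON array was left out. The probe passed the filter only through the hSRY-ON arrays and so had to differ. Its calls under the filter are therefore no separate support for the rise.

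*Klf6*, a zinc finger factor of the Krüppel-like family that binds GC-rich promoters, gave 8.72, 8.52 and 8.53 in the controls and 10.40, 9.65 and 9.46 in hSRY-ON livers (ILMN_2731949). The controls lay close together and the groups were apart by 0.73. The means were 8.59 ± 0.12 and 9.83 ± 0.50, and *Klf6* rose by 1.24 ± 0.24 (SE; interval 0.68 to 1.81; adjusted p 0.0082), a 2.37-fold change. It was called in each of 17 alternatives, with differences of 0.96 to 1.48. The other *Klf6* probe (ILMN_1232041) was detected on 0 arrays (difference -0.06).

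**Figure D2:**
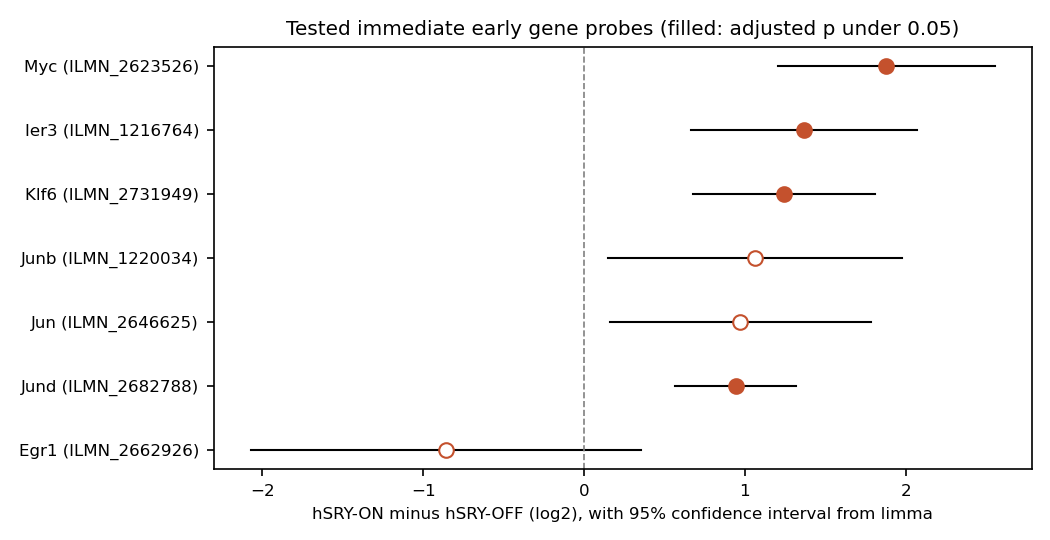
Difference in log2 intensity, hSRY-ON minus hSRY-OFF, of the 7 tested member probes with 95% confidence intervals from limma (3 arrays per group); filled points passed the adjusted p threshold of 0.05. *Myc*, detected on no hSRY-OFF array, is highest at 1.88 and *Egr1* lowest at -0.86, and the interval of *Egr1* is the only one that includes 0.

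Most of the tested members were ordered alike among the hSRY-ON livers. Replicate 1 was the highest hSRY-ON array for 5 of the 7 tested members, against 29.6% of all tested probes, and replicate 3 was the lowest for 5, against 36.4%. The exceptions were *Jund*, which was highest on replicate 3, *Myc*, which was highest on replicate 2, and *Ier3*, which was lowest on replicate 2. The median deviation of the tested members from their group mean was 0.56 on replicate 1, -0.01 on replicate 2 and -0.38 on replicate 3, where that of all tested probes was 0.00, -0.02 and 0.01. Among hSRY-OFF arrays it was 0.03, 0.13 and -0.21. *Fos*, which was not tested, was also lowest on hSRY-ON replicate 3. The summed signal of 9 neutrophil marker probes, which mark a blood cell type, was 30718, 35790 and 94062 on hSRY-ON replicates 1, 2 and 3 and 46263 to 53400 on hSRY-OFF arrays. Replicate 3 was the highest array in these markers, and their part in the members' values was not tested.

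*Egr1* differed from the other tested members in the sign of its difference, and it was set against them after the values had been seen. Within each array the log2 ratio to *Egr1* was taken for the 5 other members detected on all arrays, which leaves out *Myc*. The mean ratio was higher in hSRY-ON livers by 1.80 for *Jund*, 1.83 for *Jun*, 1.92 for *Junb*, 2.10 for *Klf6* and 2.23 for *Ier3*. These are descriptions with no test, since *Egr1* was picked for its sign and all 5 ratios share its values. Each ratio was highest on hSRY-ON replicate 3, where *Egr1* was lowest.

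**Figure D3:**
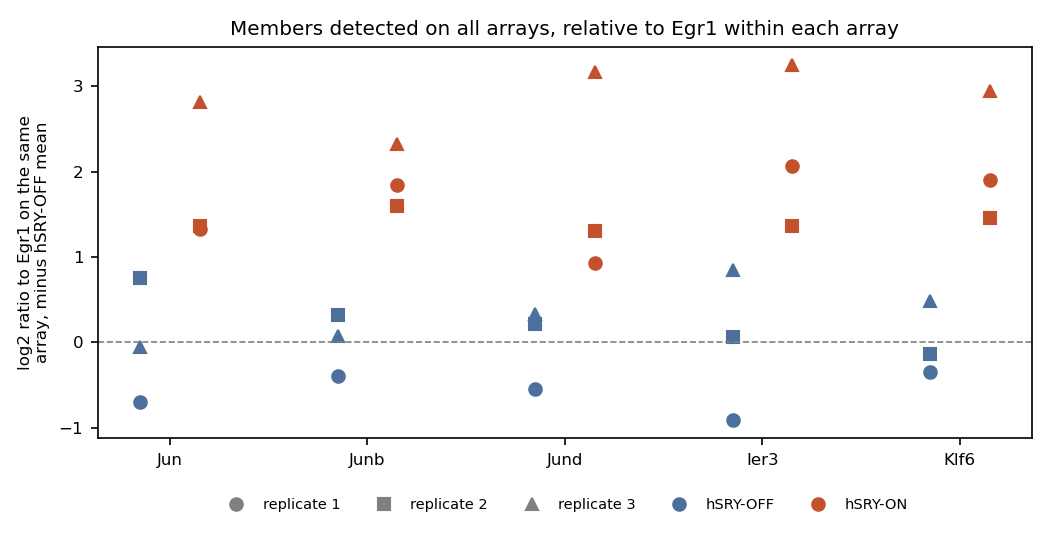
Log2 ratio of the 5 other members detected on all arrays to *Egr1* on the same array, with the hSRY-OFF mean of each ratio set to 0; blue points are hSRY-OFF and red points hSRY-ON arrays, 3 each. All red points lie above the blue points of the same gene, and the mean shifts are 1.80 to 2.23. Every shift includes the difference of *Egr1* (-0.86), which was picked for its sign. The groups overlap in the own values of *Jun* and *Junb*. The share of all tested probes that would separate in this way was not computed.

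The differences of dim members were smaller without background correction. *Myc* then gave 0.74 in place of 1.88, *Jun* 0.50 in place of 0.97 and *Jund* 0.49 in place of 0.94, and the brighter *Klf6* and *Ier3* gave 1.03 in place of 1.24 and 1.24 in place of 1.37. *Egr1* stayed below 0 in all 17 alternatives, between -1.25 and -0.25. No tested member changed sign.

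**Figure D4:**
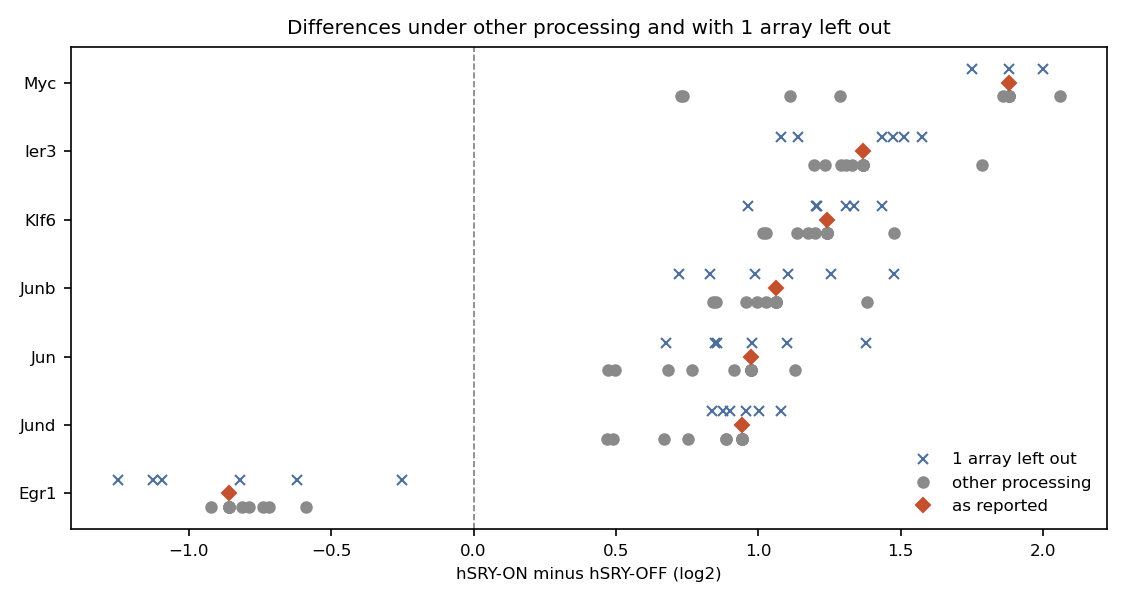
Difference in log2 intensity, hSRY-ON minus hSRY-OFF, of the 7 tested members as reported (diamonds), under other processing (circles) and with 1 array left out (crosses). No marker crosses 0, and the crosses of *Egr1* run from -1.25 to -0.25.

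The rest of the immediate early programme was described with a list of 38 further genes, of which 34 had a probe and 23 probes were tested. Of these, 12 rose and 1 fell, 52.2% and 4.35%, against 15.8% and 17.3% of all tested probes, and the median difference was 1.02. Among the 12 was a probe of *Maff*, detected on 3 hSRY-ON arrays and on no hSRY-OFF array, with at least 1.51-fold more signal in the former. It passed the filter only through the hSRY-ON arrays and so had to differ, and it is named after its value was seen. *Ccn2* (listed as *Ctgf*), which encodes a matricellular growth factor of fibrosis, gave 8.44, 8.69 and 7.70 in the controls and 12.99, 11.89 and 11.17 in hSRY-ON livers, again with replicate 3 lowest, and rose by 3.74 ± 0.46 (SE; adjusted p 0.00135). *Per1*, a repressor of the circadian clock that glucocorticoids induce, rose by 2.17 and 2.10 on its 2 probes (adjusted p 0.000888 and 0.00103). *Gadd45b*, a stress sensor, rose by 1.91 (adjusted p 0.00664), and *Cebpb*, a leucine zipper factor of the acute phase and of liver regeneration, by 1.39 (adjusted p 0.00266). *Dusp1*, the phosphatase that turns off p38 and JNK, rose by 1.22 ± 0.34 (SE; adjusted p 0.0309). The member of this list that fell was *Hes1*, a Notch target, named after its value was seen (-0.99, adjusted p 0.0102).

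A rise could not be shown for every gene of this list. *Nr4a1*, an orphan nuclear receptor induced by cyclic AMP, and *Egr2*, a relative of *Egr1*, were detected on 0 arrays. Any change in these genes could not be measured. *Atf3*, a stress-induced partner of Jun, was detected on 2 hSRY-ON arrays and on no hSRY-OFF array, with at least 2.12-fold more signal in the former, and was not tested. *Fosl2* was not analysed here. Of the 23 tested probes of the list, 10 were not called, which does not show that they were unchanged. In 16 of the 23, all hSRY-ON values lay above all hSRY-OFF values, against 25.4% of all tested probes. In 1 they all lay below, as in 2639 of all 10734 tested probes.

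Kinases, receptors and factors upstream of these genes were described with a list of 32 genes. Of its 38 tested probes, 2 rose (5.26%) and 3 fell (7.89%), against 15.8% and 17.3% of all tested probes, and the median difference was -0.04. *Srf*, which encodes serum response factor, rose by 0.91 ± 0.17 (SE; adjusted p 0.00785) on 1 probe, and its other probe was detected on 2 hSRY-ON arrays only and was not tested. *Gsk3b*, a kinase that marks Jun and Myc proteins for degradation, rose by 0.70 (adjusted p 0.0122). *Met*, the receptor for hepatocyte growth factor, fell by 1.20 (adjusted p 0.0161). Of the Jun kinase genes, *Mapk8* fell by 0.61 (adjusted p 0.0140), and *Mapk9* fell by 0.39 (adjusted p 0.0308) on 1 of 3 tested probes, which is named after its value was seen. The other 2 *Mapk9* probes gave 0.00 and -0.22.

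Partners of the members in DNA binding were described with a list of 20 genes. Of its 11 tested probes, 2 rose (18.2%, against 15.8% of all tested probes) and 3 fell (27.3%, against 17.3%), with a median of -0.03. *Jdp2*, which pairs with Jun and represses AP-1 targets, rose by 1.22 ± 0.14 (SE; adjusted p 0.00108). *Batf3* (listed as *9130211I03Rik*), a small AP-1 partner of lymphoid and dendritic cells, fell by 1.14 (adjusted p 0.00504). Its relative *Batf2* was detected on 3 hSRY-OFF arrays and on no hSRY-ON array and was at least 1.14-fold lower (adjusted p 0.0380), and it passed the filter only through the hSRY-OFF arrays. *Mycl* (listed as *Mycl1*), a relative of *Myc*, fell by 0.69 (adjusted p 0.0226). *Zbtb17*, through which Myc represses genes, rose by 0.49 (adjusted p 0.0241) and is named after its value was seen. *Max*, the partner Myc needs, differed by -0.03 (adjusted p 0.948).

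Among 16 tested probes of 19 feedback inhibitors, 3 rose and 0 fell, with a median of 0.12. The share that rose, 18.8%, is near the 15.8% of all tested probes, of which 17.3% fell. The probes that rose were of dual-specificity phosphatases, which switch off MAP kinases. *Dusp8*, whose main target is JNK, gave 6.01, 5.84 and 6.49 in the controls and 8.09, 8.06 and 8.05 in hSRY-ON livers, a rise of 1.95 ± 0.18 (SE; adjusted p 0.000438). *Dusp4* was detected on no hSRY-OFF array and had at least 1.93-fold more signal in hSRY-ON livers (adjusted p 0.00249). This probe passed the filter only through the hSRY-ON arrays, and the other 2 *Dusp4* probes were not tested. *Dusp2* rose by 0.68 (adjusted p 0.0113) on 1 of 2 tested probes, and the other gave 0.33 (adjusted p 0.291).

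Genes that Myc is known to activate were described with a list of 20 genes. Of 17 tested probes, 3 rose (17.6%, near the 15.8% of all tested probes) and 0 fell, against 17.3% of all. In 12, all hSRY-ON values lay above all hSRY-OFF values, against 25.4% of all tested probes. The median difference of the 17 probes was 0.44. *Npm1*, a nucleolar chaperone of ribosome assembly, rose by 0.71 (adjusted p 0.00566), and *Ccnd2*, a G1 cyclin, by 0.46 (adjusted p 0.0473). *Ddx21*, a nucleolar helicase, was detected on no hSRY-OFF array and had at least 1.16-fold more signal in hSRY-ON livers (adjusted p 0.00463), and it passed the filter only through the hSRY-ON arrays.

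Known AP-1 targets were described with a list of 15 genes. Of 14 tested probes, 6 rose (42.9%, against 15.8% of all tested probes) and 3 fell (21.4%, near the 17.3% of all), with a median of 0.41. The 3 probes that fell were of 1 gene, *Ccnd1*, the G1 cyclin that rises when hepatocytes enter the cell cycle. On the *Ccnd1* probe with the largest fall (ILMN_2669793) the values were 10.28, 10.69 and 10.27 in the controls and 8.04, 7.83 and 8.53 in hSRY-ON livers, and the 3 probes gave -2.28, -2.05 and -1.91 (adjusted p 0.000451 for the first). *Timp1*, an inhibitor of matrix metalloproteases, rose by 1.49 and 1.40 on its 2 probes (adjusted p 0.00645 and 0.0113). *Vegfa*, an endothelial growth factor, rose by 1.17 and 1.16 on the 2 probes tested, and *Hmox1*, which degrades haem, rose by 1.03 (adjusted p 0.00452).

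Of 6 tested probes of 11 other Krüppel-like genes, 3 rose and 0 fell, with a median of 0.87. Of all tested probes, 15.8% rose and 17.3% fell. *Klf9*, a glucocorticoid-induced relative of *Klf6*, gave 7.65, 8.29 and 8.11 in the controls and 10.24, 10.79 and 9.35 in hSRY-ON livers, a rise of 2.11 ± 0.36 (SE; adjusted p 0.00472). *Klf5* rose by 1.49 (adjusted p 0.0044) and *Klf13* by 1.25 (adjusted p 0.00226), and both encode factors that bind GC-rich promoters. Over all 7 lists, 31 of 125 tested probes rose (24.8%) and 10 fell (8%), against 15.8% and 17.3% of all tested probes. Among the 31, probes of *Maff*, *Dusp4* and *Ddx21* passed the filter only through the hSRY-ON arrays. Among the 10, that of *Batf2* passed only through the hSRY-OFF arrays. The lists were chosen with earlier results of these data known, so these shares are descriptions only.

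**Figure D5:**
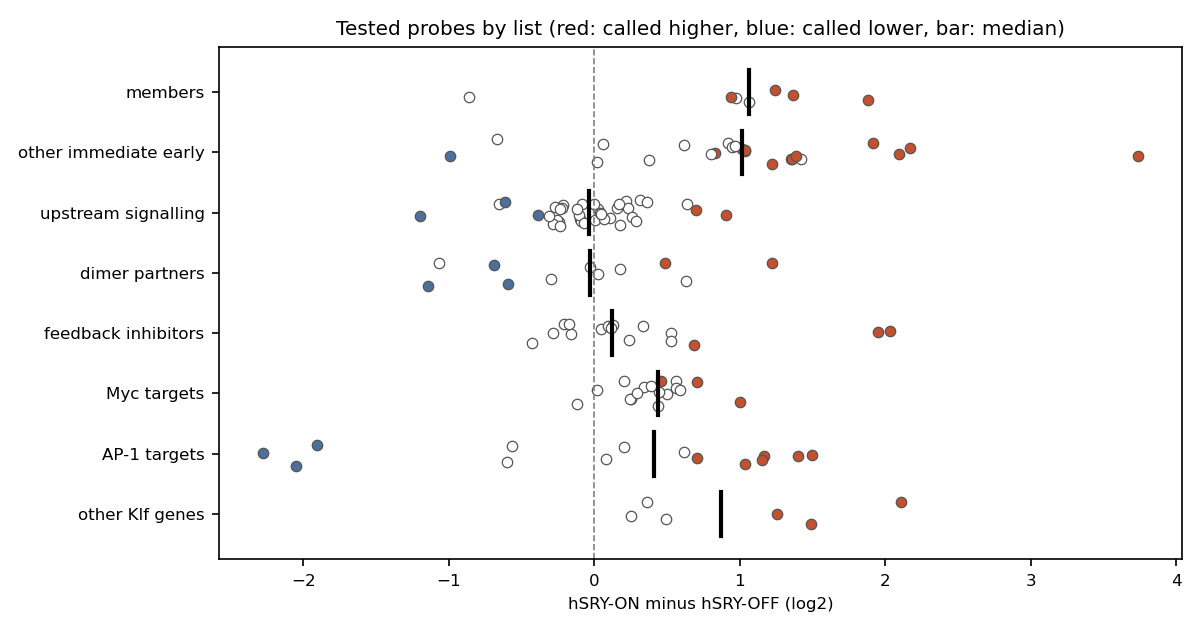
Difference in log2 intensity, hSRY-ON minus hSRY-OFF, of each tested probe of the members and of 7 pathway lists; red points were called higher, blue points lower, white points were not called, and a bar marks the median of the list. The medians of the members (1.06), the other immediate early genes (1.02) and the other Klf genes (0.87) are the 3 highest, and those of upstream signalling (-0.04) and dimer partners (-0.03) lie near 0.

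Some markers of liver cell types also differed between the groups. Their lists are small, and the counts below stand against 15.8% higher and 17.3% lower of all tested probes. Of 8 tested hepatocyte probes, 0 rose and 4 fell, and *Tat* was detected on no array. Those that fell were of *Serpina1a* (-0.91 and -1.11), *Ttr* (-0.46) and *Alb* (-1.11). The *Alb* probe was dim, with means of 7.94 in the controls and 6.82 in hSRY-ON livers, where *Ttr* had 14.67 and 14.21. Those not called were of *Cps1* (0.45 and 0.49), *Hnf4a* (-0.09) and *Apoa1* (-0.12). Their summed signal was 83877 to 92571 in the controls and 79077 to 95463 in hSRY-ON livers, which overlap. Stellate and mesenchymal markers had a summed signal of 14135 to 15909 in the controls and 23127 to 25079 in hSRY-ON livers. Without the probes of *Acta2* the order turned, with 11572 to 13525 in the controls and 9296 to 10940 in hSRY-ON livers. Of the 6 probes in that sum, the *Reln* probe was the brightest in the controls (mean 12.82) and fell by 0.66. *Dcn* (0.05 and 0.16), *Des* (0.77) and *Pdgfrb* (0.24) had higher means in hSRY-ON livers, and *Col1a1* had a lower one (-0.47). Of their 12 tested probes 5 rose, which were 4 probes of *Acta2*, the smooth muscle actin of activated stellate cells, and 1 of *Des*, and 2 fell, *Lrat* and *Reln*. The *Lrat* probe was detected on no hSRY-ON array and was at least 2.23-fold lower. It passed the filter only through the hSRY-OFF arrays. Kupffer cell and macrophage markers ranged from 10275 to 13196 in the controls and from 7813 to 9830 in hSRY-ON livers, with 1 of 11 tested probes higher and 4 lower and *Cd5l* detected on no array. Among the 4, a *Clec4f* probe (ILMN_2876653, at least 1.14-fold lower) passed the filter only through the hSRY-OFF arrays. All 5 tested lymphocyte probes fell, and the 1 detected on all arrays ranged from 344 to 490 and from 128 to 246.

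Endothelial markers summed to 3123 to 3644 and 3426 to 4255 (3 of 7 tested probes higher, 0 lower, *Kdr* on no array). Erythroid markers, without *Hba-a1*, summed to 17430.0 to 35901 and 33847 to 46150 (1 of 5 higher, 0 lower, *Epb42* on no array). These counts stand against 15.8% higher and 17.3% lower of all tested probes. *Hba-a1* was left out because it was the brightest probe on all 6 arrays, which gives it the same value on each after quantile normalization. Of 10 tested neutrophil probes and 2 tested biliary probes, 0 were called, where 33.1% of all tested probes were. The biliary marker *Krt19* was detected on no array. The markers named here were picked out after their values were seen. The part of these cell types in the values of the immediate early genes was not tested.

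The 5 tested probes whose values were most like those of *Jun* over the 6 arrays were *Ptpn12* (Pearson r 0.982), *Tgfbrap1* (0.977), *Amz2* (0.975), *Inf2* (0.973) and *Gipc1* (0.970). *Jun* was used because *Fos* was not tested. Of 10732 probes compared, 24 had an r over 0.95. All share the same 6 livers and the same 2 groups, and none of the other members was among the 5.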

How the data were processed

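The authors measured liver RNA of 6 pups on Illumina MouseRef-8 BeadChips. The deposited table held, per probe and array, a linear bead intensity, neither background-corrected nor normalized, and a deposited detection p-value. Scanner settings and genome build were not given in the sources used here, and slides, scan dates and control probes were not used. Groups came from the labels. The study names TCC, a package for counts, which was not applied to intensities.

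Background was removed with limma 3.58.1 in R 4.3.3 (nec, offset 16), followed by quantile normalization and log2 transformation. The offset shrinks differences of dim probes. Probes that 3 or more of the 6 arrays detected (detection p under 0.01) were fitted with lmFit and eBayes without covariates, two-sided, with Benjamini-Hochberg adjustment over all tested probes. Intervals are 95% intervals of that fit, and 3 arrays per group limit the precision. Where only arrays of the brighter group detected a probe, a bound is given. For *Fos* and *Myc* the measured difference is given beside the bound. The fit was tested on simulated data. Probes of 1 gene were kept apart, and older symbols were matched through RefSeq names. Motifs were searched with Python 3.11.15.

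The members and the gene lists were chosen with earlier results of these data known. Named were all members, of each list up to 4 called probes with the largest difference (1 per symbol), *Dusp1*, *Atf3*, *Nr4a1*, *Cebpb*, *Egr2*, *Fosl2*, *Srf* and *Max*, and the 5 probes most like *Jun*. Genes named outside this rule are said to be. Alternatives changed the background correction, scaling, filter, test, threshold, matching of symbols and arrays included.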

Additional observations from a re-analysis of the deposited data

How the results depend on the processing

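No tested member changed sign under any alternative. The count of members called higher, 4, was 3 to 6, and that called lower, 0, stayed at 0 except with the block given below. It was 6 with array quality weights (*Jun* and *Junb* added), 5 without a filter (*Fos* added), 3 with detection required on all 6 arrays (*Myc* not tested), 3 at an adjusted p under 0.01 (*Ier3* lost), and 3 with symbols exactly as listed, an alternative chosen after seeing the data (*Jund* left out). At an adjusted p under 0.01, 693 of all tested probes were higher and 972 lower, with 20 and 4 of the pathway lists. Quality weights gave 16 lower probes of the pathway lists, against 10. The cause of these shifts was not tested beyond the stricter threshold itself.

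With 1 array left out, 3 to 5 members were higher and 0 lower (0 in each case), the pathway lists had 21 to 38 probes higher and 5 to 12 lower, and all tested probes 856 to 1822 higher and 965 to 2125 lower. The lowest counts came without hSRY-OFF replicate 1 (856 higher, 965 lower, 5 of the lists lower), where *Ier3* was lost (1.14, adjusted p 0.0510), and without hSRY-OFF replicate 2 (950, 1009 and 5), where *Jun* was added. Without hSRY-ON replicate 1, 1075 probes were higher. *Myc* could not be tested without any one hSRY-ON array, and without replicate 3 *Junb* was added.

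Replicate numbers are shared by the groups, but same-numbered arrays deviated together only weakly (correlations 0.02, 0.10 and 0.05), and not every array correlated best with its own number. With the replicate number as a block, 5 members were higher (*Junb* added, adjusted p 0.0217) and 1 lower (*Egr1*, adjusted p 0.0471). Rescaling moved the median difference of all tested probes to between -0.04 and 0.02. *Fos*, *Fosb*, *Ier2* and the second probes of *Myc* and *Klf6* are limited by signal over background.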
